A study of Mus musculus with 2 samples.

Results

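The B cells of mouse lung tissue were described here across genes and between 2 single-cell RNA sequencing libraries. They were the barcodes that held UMIs (unique molecular identifiers, each counted as 1 captured RNA molecule) of at least 2 of the 5 B cell genes Cd79a, Cd79b, Ms4a1, Ebf1 and Bank1, with Cd79a among them. They also had fewer than 20 UMIs of the plasma cell gene Jchain, no UMI of the T cell genes Cd3d, Cd3e and Cd3g, at most 1 UMI over the macrophage genes C1qa, C1qb and C1qc, none of the alveolar macrophage genes Krt79 and Plet1, and none of the dendritic cell genes Xcr1 and Clec9a. The rule found 403 B cells among 16932 barcodes that had at least 300 genes and under 10% mitochondrial UMIs. The tamoxifen library held 251 of them and the oil library 152. Since measured values chose these cells, the genes of the rule are given below as a description only.

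B cells carry an immunoglobulin receptor whose signalling subunits are the products of Cd79a and Cd79b, and they present antigen on MHC class II molecules to helper T cells. Naive B cells, which have not met antigen, carry IgM and IgD and recirculate through blood and lymphoid tissue, whereas B1 cells, memory cells and cells switched to IgA or IgG also occur in mucosal tissues such as the lung. Interferons act on B cells through receptors on their surface and induce antiviral genes, guanylate-binding proteins and antigen-processing genes.

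Both groups were adult mice labelled Gli1creERT/Hhipflo/flox, injected with tamoxifen for the tamoxifen library and with oil for the control, the oil library. Gli1creERT is a Cre recombinase that is active after tamoxifen in cells that express Gli1, a target of the Hedgehog pathway typical of mesenchymal cells, and Hhip encodes a surface protein that binds and restrains Hedgehog ligands. Oil-injected animals carried the same alleles, so the effect of tamoxifen itself and that of the recombination cannot be told apart. The cells were sorted as live CD45-positive lung cells that an antibody given into the blood shortly before death had not labelled, which leaves out cells inside the vessels, and were prepared with 10x Genomics 3' v3 chemistry. The labels used here do not state the number, exact age, sex or strain background of the animals. Each library held B cells with the female transcript Xist alone (182 tamoxifen and 117 oil) and B cells with Y-linked transcripts alone (33 tamoxifen and 16 oil), called female and male cells below. Neither group has a second library, so no test was made and the spread between animals is unknown. Every interval below is a 95% interval that covers counting error only.

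The B cells held 1716308 UMIs in the tamoxifen library and 1154333 in the oil library, with a median of 5940 and 6602.5 UMIs per cell and a median mitochondrial share of 3.78% and 3.85%. The libraries shared 41 barcode sequences in all, of which 0 were B cells. The label of the cells was checked on B cell genes that the rule did not use, after each cell had been thinned at random to 1500 UMIs, which left out 5 tamoxifen and 3 oil B cells below that depth. Fcmr, the receptor for IgM, was detected in 24.4% of tamoxifen B cells (19.2 to 30.3) and 24.8% of oil B cells (18.1 to 32.6), and the transcription factor Pax5 in 17.9% and 20.8%. In T cells, taken as barcodes with at least 2 Cd3 UMIs and no UMI of the 5 B cell genes, Fcmr was found in 3 of 3846 tamoxifen cells and 0 of 2166 oil cells, where a limit of 3 counts over these cells allows a share of up to 0.139%. Their median depths were 5436 and 5856 UMIs. The kappa light chain gene Igkc was found in 97.2% of tamoxifen B cells and 96.0% of oil B cells, against 10.6% and 11.6% of T cells of the same libraries. The T cell shares are given as a background from free RNA beside the B cell shares. Since T cells with a UMI of the 5 B cell genes were left out, this background may be too low.

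RNA of other cell types was low by summed markers but uneven between the libraries. Summed over 8 macrophage markers the B cells held 219 CPM (UMIs of a gene per 1000000 UMIs of the B cells of that library) in the tamoxifen library and 79.7 CPM in the oil library, and over 7 neutrophil markers 44.9 and 12.1 CPM. Conventional dendritic cell markers were lower in tamoxifen, at 30.3 CPM against 87.5 CPM in oil, and so were NK and innate lymphoid markers, with 24 UMIs against 48 UMIs. Single barcodes held much of this RNA, 144 of the 376 macrophage UMIs in tamoxifen and 49 of the 101 dendritic cell UMIs in oil. Lyz2, an abundant macrophage gene, was found in 16.7% of thinned tamoxifen B cells and 4.70% of thinned oil B cells, and in 26.5% and 14.6% of T cells. Cst3, also abundant in macrophages, was more widespread and went the other way. It was found in 51.2% of thinned tamoxifen and 63.8% of thinned oil B cells, and in 51.6% and 55.1% of T cells. At least 5 UMIs over the markers of any 1 other type were found in 9 tamoxifen and 8 oil B cells, and values without these barcodes are given beside the genes that they move outside their interval. Their part in the other differences was not tested.

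The share of B cells differed little between the libraries. They made up 2.48% of kept barcodes in the tamoxifen library (2.18 to 2.80) and 2.24% in the oil library (1.90 to 2.62), a log2 ratio of tamoxifen over oil of 0.15 (-0.14 to 0.43). The share depends on what else was sorted. Without barcodes that held UMIs of the alveolar macrophage genes Krt79 and Plet1, B cells made up 3.52% of tamoxifen and 2.48% of oil barcodes, a log2 ratio of 0.51 (0.22 to 0.80). Among female cells alone the shares were 2.96% and 3.15%, and among male cells 1.97% and 1.13%.

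Most B cells lay well inside the limits of the rule. All 5 B cell genes were found in 174 tamoxifen and 119 oil members, and only 2 of the 5 in 6 and 1. Just outside, 81 tamoxifen and 33 oil barcodes met every other criterion but held a Cd3 UMI, of which 39 and 15 held a single one. Another 32 tamoxifen and 3 oil barcodes were left out for Krt79 or Plet1 UMIs alone, 21 and 18 for at least 20 Jchain UMIs alone, and 8 and 15 for having too few of the B cell genes.

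Gene expression was compared on UMIs summed over the B cells of each library and scaled to CPM, for the 7491 genes with at least 20 UMIs over both libraries. At least 2-fold higher in tamoxifen were 207 genes (2.76%) and at least 2-fold lower 228 genes (3.04%), together 5.81%. Above 0 were 48.2% and below 0 were 51.8%, and the median log2 ratio of all genes tested was -0.02. The calls differed in how many cells carried them. At least 0.5 of the higher library's UMIs came from 1 barcode for 11 of the higher genes (5.31%) and for 41 of the lower genes (18.0%). When each gene was recomputed without its highest barcode in each library, 198 of the 207 higher calls and 180 of the 228 lower calls were still at least 2-fold. Recomputed in this way, 300 genes (4%) were at least 2-fold higher and 203 (2.71%) at least 2-fold lower. The median log2 ratio of all genes tested became 0.03, so this step raises ratios and does not treat the directions alike. The higher library of the lower genes is also the one with fewer B cells, 152 against 251. How far this accounts for the contrast between higher and lower calls was not tested. The share of UMIs held by 1 barcode is plotted for each called gene detected in both libraries.

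**Figure D1:**
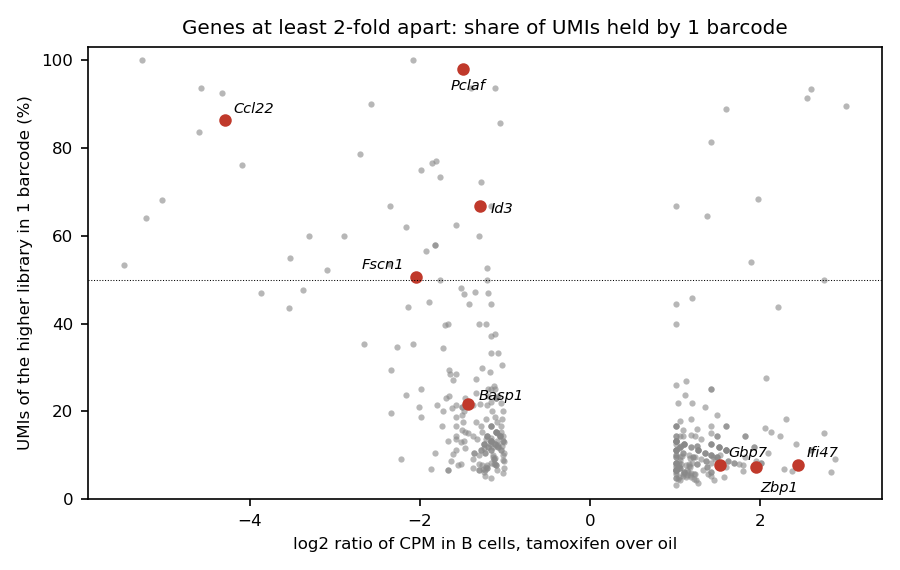
Each point is a gene at least 2-fold apart between the B cells of the 2 libraries and detected in both. The horizontal axis is the log2 ratio of CPM, tamoxifen over oil, and the vertical axis the percentage of the higher library's UMIs that came from its highest barcode, with a dotted line at 0.5 of them. Interferon-responsive genes such as Ifi47, Zbp1 and Gbp7 lie near the bottom on the right, whereas Ccl22, Pclaf and Id3, lower in tamoxifen, lie near the top on the left.

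Interferon-responsive genes came first among the genes higher in tamoxifen, once 15 genes were set aside. Their level in B cells was under 1/5 of that in the other barcodes in at least 1 library, a limit set for free RNA. Of the genes set aside, Tmem252, Lyz2 (log2 ratio 2.21, 1.76 to 2.68) and Ptgs2 had bounds above that of Ifi47. In tamoxifen, 1 barcode held all 41 UMIs of Tmem252, and 1 barcode held 43 of the 48 UMIs of Ptgs2. Tmem252 was set aside for its level in oil only, since in tamoxifen it had 23.9 CPM in B cells and 16.8 CPM in the other barcodes. Ranked by the interval bound nearest to 0, the first 4 of the remaining genes were Ifi47, Zbp1, Gbp7 and Irgm1, although Slc2a3 and Ube2o had larger ratios than some of them from fewer UMIs. Ifi47, an interferon-inducible GTPase (chromosome 11, 49076587 to 49096974, GRCm38), had 65 UMIs in 43 tamoxifen B cells and 8 UMIs in 6 oil B cells, or 37.9 and 6.93 CPM, a log2 ratio of 2.45 (1.39 to 3.72). Zbp1, a sensor of nucleic acids in the Z conformation (chromosome 2, 173206612 to 173218923), had 40.2 CPM in tamoxifen and 10.4 CPM in oil, a log2 ratio of 1.95 (1.06 to 2.97). Both were spread over cells, with at most 5 UMIs in 1 tamoxifen barcode. Gbp7, a guanylate-binding protein of host defence (chromosome 3, 142530342 to 142550149), had 129 UMIs in 56 tamoxifen cells and 30 in 19 oil cells, or 75.2 and 26.0 CPM, a log2 ratio of 1.53 (0.95 to 2.16). Irgm1, an immunity-related GTPase (chromosome 11, 48861968 to 48871683), had 42.5 and 15.6 CPM, a log2 ratio of 1.45 (0.69 to 2.28), and Gbp2 had 41.4 and 18.2 CPM, a log2 ratio of 1.19 (0.47 to 1.96). In T cells of the same libraries the log2 ratios were 0.09 for Ifi47, 0.36 for Zbp1, -0.18 for Gbp7, -0.17 for Irgm1 and 0.40 for Gbp2. In macrophages with at least 5 C1q UMIs they were 1.57, 1.98, -0.12, 1.00 and 0.73 in the same order. Several of these genes were therefore also higher outside B cells. In plasma barcodes, with at least 20 Jchain UMIs (35 tamoxifen and 23 oil), they were -0.79, -0.31, -2.04, -2.66 and -2.49, from few UMIs. Without each library's highest barcode all 5 log2 ratios in B cells were above 1, the highest being that of Ifi47 at 2.75. In thinned cells, Ifi47 was found in 5.69% of tamoxifen and 0.671% of oil B cells, against 139 of 3846 and 78 of 2166 T cells, and Zbp1 in the same shares of B cells, against 2.47% and 1.99% of T cells. Gbp7 was found in 8.94% of tamoxifen and 6.04% of oil B cells, and in 8.92% and 9.70% of T cells, so its share of cells did not set B cells apart from T cells.

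The promoters of 5 of these interferon-responsive genes and of Isg15 are shown because the genes were higher together and several carry sequences that interferon-activated factors are known to bind. Each window runs from 250 bases before to 50 bases after the annotated start (RefSeq, GRCm38.p6), read 5′ to 3′ along the gene. Where a gene had several windows, the one with most matches is shown. Capitals mark matches, on either strand, to a pair of GAAA separated by any 2 bases, the core of the interferon-stimulated response element (ISRE), or to TTCNNNGAA, the gamma-activated site. No match of one motif overlapped a match of the other in these windows, although matches of one motif could overlap each other.
Ifi47, chr11:49076337-49076636, plus strand: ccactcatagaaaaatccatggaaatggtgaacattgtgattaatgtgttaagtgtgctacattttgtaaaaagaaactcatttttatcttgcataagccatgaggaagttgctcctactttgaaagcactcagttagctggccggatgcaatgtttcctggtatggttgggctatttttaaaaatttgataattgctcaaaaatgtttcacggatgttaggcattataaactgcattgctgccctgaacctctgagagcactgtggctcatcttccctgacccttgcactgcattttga
Gbp7, chr3:142530086-142530385, plus strand: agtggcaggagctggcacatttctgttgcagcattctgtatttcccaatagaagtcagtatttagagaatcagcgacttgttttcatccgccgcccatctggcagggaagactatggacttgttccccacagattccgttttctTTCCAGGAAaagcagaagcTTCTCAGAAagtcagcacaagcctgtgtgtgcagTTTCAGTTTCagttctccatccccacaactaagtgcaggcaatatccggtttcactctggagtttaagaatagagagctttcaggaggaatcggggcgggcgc
Irgm1, chr11:48871371-48871670, minus strand: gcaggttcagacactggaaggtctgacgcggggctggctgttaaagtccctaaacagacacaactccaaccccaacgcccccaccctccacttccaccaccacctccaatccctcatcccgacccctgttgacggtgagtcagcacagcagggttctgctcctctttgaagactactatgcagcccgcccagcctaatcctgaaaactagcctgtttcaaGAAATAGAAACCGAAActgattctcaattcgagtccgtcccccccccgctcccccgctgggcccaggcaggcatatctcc
Gbp2, chr3:142620413-142620712, plus strand: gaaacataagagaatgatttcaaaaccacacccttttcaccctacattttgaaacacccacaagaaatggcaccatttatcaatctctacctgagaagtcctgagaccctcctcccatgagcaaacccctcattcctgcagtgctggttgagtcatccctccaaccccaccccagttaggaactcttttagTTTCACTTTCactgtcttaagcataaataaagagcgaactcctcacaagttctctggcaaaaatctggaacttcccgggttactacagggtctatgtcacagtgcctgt
Irf1, chr11:53769764-53770063, plus strand: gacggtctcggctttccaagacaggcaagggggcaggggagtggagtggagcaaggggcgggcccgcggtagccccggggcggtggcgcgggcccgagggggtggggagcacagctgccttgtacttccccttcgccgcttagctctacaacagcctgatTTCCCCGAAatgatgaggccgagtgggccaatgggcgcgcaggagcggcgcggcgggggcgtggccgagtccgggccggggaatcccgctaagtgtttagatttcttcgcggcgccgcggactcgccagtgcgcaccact
Isg15, chr4:156200769-156201068, minus strand: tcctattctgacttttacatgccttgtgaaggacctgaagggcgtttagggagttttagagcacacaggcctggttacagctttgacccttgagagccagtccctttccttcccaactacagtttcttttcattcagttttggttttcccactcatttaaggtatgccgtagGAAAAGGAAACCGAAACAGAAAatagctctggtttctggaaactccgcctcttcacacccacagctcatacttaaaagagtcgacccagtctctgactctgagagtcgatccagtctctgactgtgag

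The Gbp7 window held 1 match to the ISRE core and 2 to TTCNNNGAA. Irgm1 held 2 matches to the ISRE core, Gbp2 held 1 and Isg15 held 3, without a match to TTCNNNGAA. Irf1 held 1 match to TTCNNNGAA, and the Ifi47 window held neither motif, which says nothing beyond these letters and these 300 bases. Over all 32851 promoter windows of the RefSeq table, 3.44% held the ISRE core and 8.30% held TTCNNNGAA. Of the interferon-gamma response genes tested, 16 of 21 matched the table, with 19 windows, of which 9 (47.4%) held the ISRE core and 5 (26.3%) held TTCNNNGAA. Of the 15 named genes that were higher in tamoxifen, 11 matched, with 12 windows, of which 3 held the ISRE core (Gbp2, Gbp7 and Irgm1). These lists were drawn up from genes known to respond to interferon, so the matches describe the genes and not the difference between the libraries.

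Gbp7, Irgm1 and Gbp2, named above by rank, belong to a list of 28 genes of the interferon-gamma response. It holds guanylate-binding proteins, immunity-related GTPases, transcription factors and antigen-processing genes. The counts below include those named above, and the list was chosen with earlier results of these data known, so they describe the list. Of its members 21 had enough UMIs to be compared, of which 18 lay above 0, against 48.2% of all genes tested, 6 were at least 2-fold higher, against 2.76% of all genes, and 1 was at least 2-fold lower, against 3.04%, with a median log2 ratio of 0.77. Summed over the list, B cells held 2273 CPM in tamoxifen and 1819 CPM in oil, a log2 ratio of 0.32 (0.24 to 0.40). This sum leans on the abundant immunoproteasome genes, which lay closer to 0 than the median gene. The 6 were Gbp7, Irgm1, Gbp2, Gbp9 (1.19, 0.41 to 2.03), Gbp5 (1.26, 0.01 to 2.72) and Gbp4 (1.05, 0.15 to 2.03). Irf1, a transcription factor that interferon-gamma induces, had 104 CPM in tamoxifen and 53.7 CPM in oil, a log2 ratio of 0.96 (0.53 to 1.40). The feedback inhibitor Socs1 had 57.7 and 32.1 CPM (0.85, 0.29 to 1.43). Psmb8, Psmb9 and Psme1, of the immunoproteasome and its activator, had log2 ratios of 0.23, 0.15 and 0.20. Ciita, the activator of MHC class II genes, was at -0.14 (-0.47 to 0.20), and the chemokine gene Cxcl10 was at -1.11 from 11 and 16 UMIs in 6 cells of each library.

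The list of genes shared with type I interferon, chosen in the same way and holding Zbp1 named above, gave a smaller shift. Of its 44 members in the matrices 22 were compared. Of these 16 lay above 0, against 48.2% of all genes, 4 were at least 2-fold higher, against 2.76%, and 0 at least 2-fold lower, against 3.04%, with a median log2 ratio of 0.43. The 4 were Zbp1, Irf7 (from 21 and 5 UMIs, interval 0.05 to 3.26), Ifi214 (1.05) and Isg15 (1.01, -0.12 to 2.29). Samhd1, a nucleotide hydrolase that restricts viruses, was at 0.77 (0.49 to 1.06), whereas Ly6a was at -0.28 (-0.45 to -0.12) and Ifi203 at -0.02. The levels of the members are drawn gene by gene in the plot of interferon-responsive genes.

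**Figure D2:**
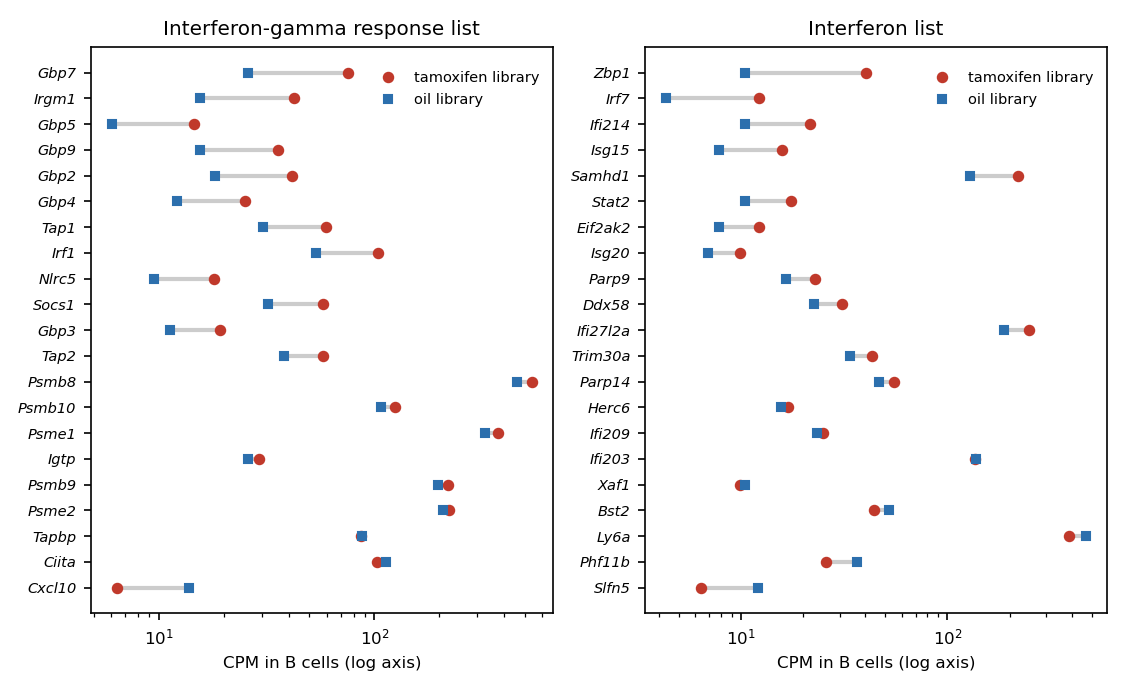
CPM of the list members with at least 20 UMIs, except 1 of the interferon list that is not shown, in the B cells of the tamoxifen library (circles) and of the oil library (squares), on a log axis, with 1 row per gene ordered by the log2 ratio. Most circles lie right of their squares in the upper rows, from Gbp7 (75.2 against 26.0 CPM) and Zbp1 (40.2 against 10.4 CPM), and left of them in the lowest rows, such as Cxcl10 and Slfn5.

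Set beside other cells, the shift of the interferon-gamma response list in B cells lay between those of T cells and macrophages, and plasma barcodes went the other way. Its summed log2 ratio was -0.04 in T cells (-0.06 to -0.01), 0.36 below that of B cells (0.28 to 0.44), and 0.45 in macrophages with at least 5 C1q UMIs (0.43 to 0.48). In plasma barcodes it was -0.57 (-0.72 to -0.42), and over all other kept barcodes 0.06 (0.05 to 0.07). The Ifng transcript itself, counted in all other kept barcodes, was at 9.33 CPM in tamoxifen and 9.60 CPM in oil. Levels over all other kept barcodes also depend on the mix of cells in each library. Within the B cells the summed log2 ratio of this list was 0.34 in female cells (0.25 to 0.42) and 0.51 in male cells (0.28 to 0.74). The type I list was at 0.34 in female cells (0.24 to 0.44) and -0.14 in male cells (-0.40 to 0.13), where there were 33 tamoxifen and 16 oil cells.

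The cells that carried this difference could be followed one by one after thinning to 1500 UMIs. A cell was put in the interferon state when UMIs of at least 3 genes of the interferon list were found. This cut divides a continuous range and does not mark a cell type: 56 tamoxifen and 29 oil cells had 2 such genes and 30 and 21 had 3. In this state were 65 of 246 tamoxifen cells (26.4%, 21.0 to 32.4) and 33 of 149 oil cells (22.1%, 15.8 to 29.7), a log2 ratio of 0.25 (-0.27 to 0.78), so a difference in this share was not detectable at this depth. In T cells the shares were 14.9% and 15.4%. Counted over both interferon lists, the state held 74.4% of tamoxifen and 65.1% of oil B cells (0.19, -0.01 to 0.39), against 64.6% and 66.5% of T cells. The libraries stood further apart among cells with many such genes. At least 10 genes of the 2 lists, a number chosen after the values were seen, were found in 21 of 246 tamoxifen B cells (8.54%, 5.36 to 12.8) and 3 of 149 oil B cells (2.01%, 0.417 to 5.77), against 3.41% and 2.54% of T cells. Without the barcodes that held RNA of other types these were 20 of 237 and 3 of 141.

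**Figure D3:**
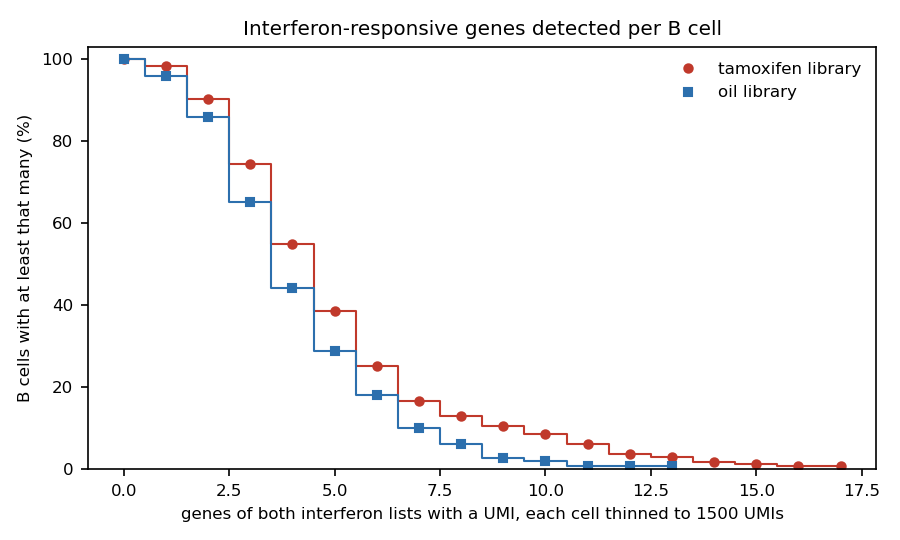
Percentage of thinned B cells, 246 of the tamoxifen library (circles) and 149 of the oil library (squares), with at least the number of interferon-responsive genes given on the horizontal axis. The tamoxifen curve lies above the oil curve from 1 gene upward and ends at 17 genes, the oil curve at 13.

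Cells in the interferon state shared other genes in both libraries. Leaving out genes of the list and barcodes with RNA of other types, Serpina3g, a serine protease inhibitor, had 225 CPM inside and 41.8 CPM outside the state in tamoxifen, and 127 and 26.1 CPM in oil. Plac8, Socs3 and Cd38 were also higher inside the state in both libraries, with log2 ratios of 0.69 and 1.15 for Plac8, 0.95 and 1.12 for Socs3 and 0.62 and 0.82 for Cd38 in tamoxifen and oil. Lower inside it in both were Vpreb3 (-1.41 in tamoxifen and -1.97 in oil) and Egr1, an immediate early gene (-0.64 and -1.50). The state was picked from the same cells, so these values describe it and test nothing.

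Antigen presentation genes lay near 0 over all B cells, but not within female and male cells. Over 16 genes of MHC class II presentation the median log2 ratio was 0.00, with 0 at least 2-fold apart, against 5.81% of all genes. The most abundant members H2-Aa, H2-Ab1 and Cd74 were at -0.02, 0.03 and -0.11. Summed over the list, the log2 ratio was -0.11 in female cells (-0.14 to -0.09) and 0.44 in male cells (0.38 to 0.50), so the pooled value covers opposite directions. The members furthest above 0 were H2-Ob (0.61, 0.31 to 0.92) and H2-Oa (0.56, 0.28 to 0.84), whose products form the DO regulator of peptide loading in B cells, H2-Eb2 (0.56) and H2-Eb1, the E beta chain. H2-Eb1 had 1552 CPM in tamoxifen and 1073 CPM in oil, a log2 ratio of 0.53 (0.43 to 0.63). It was at -0.12 in female cells and 1.60 in male cells, so the pooled value does not describe both. H2-Oa was at 0.48 in female and 1.24 in male cells and H2-Ob at 0.49 and 0.94. In T cells of the same libraries H2-Oa was at -0.51 and H2-Ob at -0.68. The peptide transporter genes Tap1 (0.97, 0.40 to 1.57) and Tap2 (0.60, 0.07 to 1.14) lie on chromosome 17 as the H2 genes do. The class I genes H2-K1, H2-D1 and B2m were at -0.04, -0.22 and 0.03.

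Genes that define B cells leaned slightly lower in tamoxifen, and those of their receptor signalling had a median near 0. The 12 identity genes had a median log2 ratio of -0.09 with 0 at least 2-fold apart, against 5.81% of all genes. Summed over the identity list the log2 ratio was -0.18 (-0.21 to -0.14), and 5 members had intervals wholly below 0 against 0 wholly above. Cd79a had 2423 CPM in tamoxifen and 2512 CPM in oil, and Ebf1 1090 and 1062 CPM. Both are genes of the rule, so these values are description only. Ly6d, the member furthest from 0, had 1689 and 2396 CPM (-0.50, -0.58 to -0.43). Of 22 genes of B cell receptor signalling 0 were at least 2-fold apart, against 5.81% of all genes, with a median of -0.03. The inhibitory phosphatase gene Inpp5d was lowest (-0.39, -0.60 to -0.17). Of 20 transcription factors Foxp1 (0.37, 0.18 to 0.56) and Mef2c (0.28, 0.15 to 0.42) were higher in tamoxifen. Id3, an inhibitor of E proteins, was at -1.29, but 56 of its 84 oil UMIs came from 1 barcode, and without the highest barcode of each library it was at 0.14. The receptor of the survival factor BAFF, Tnfrsf13c, was at 0.42 (0.08 to 0.77), its relative Tnfrsf13b at -0.41 (-0.77 to -0.05), and the type I interferon receptor subunit Ifnar1 at -0.85 (-1.21 to -0.50). Both subunits of the interferon-gamma receptor, Ifngr1 and Ifngr2, were near 0 (0.04 and 0.07).

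**Figure D4:**
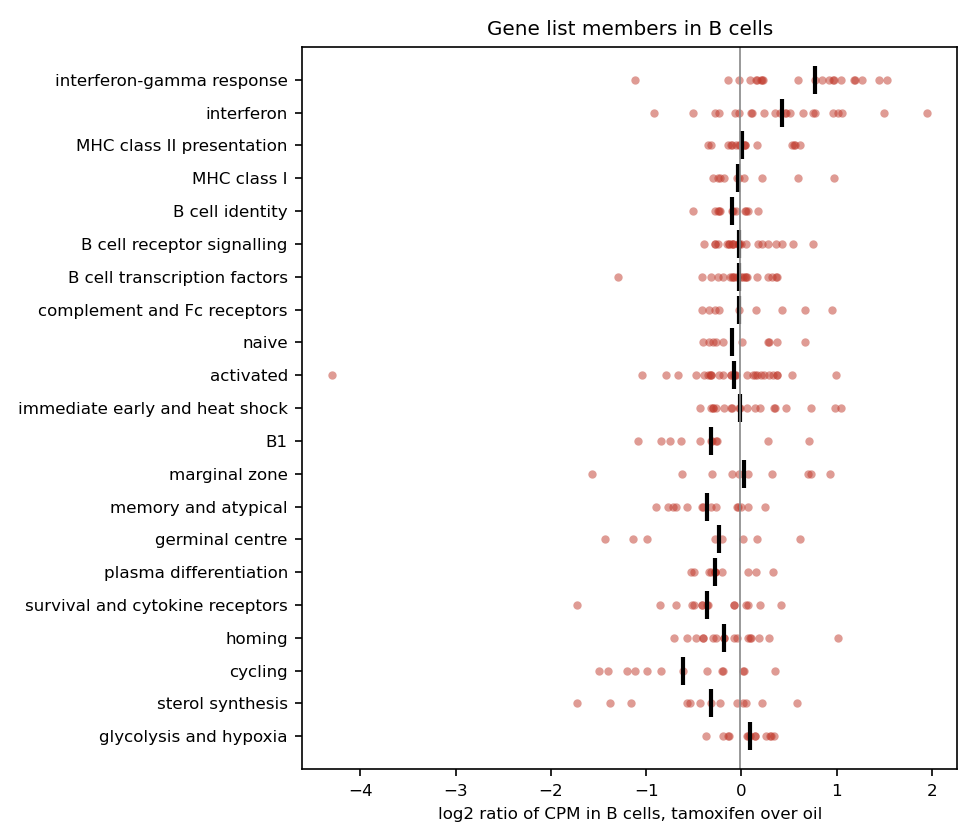
Log2 ratio of CPM in B cells, tamoxifen over oil, for every list member with at least 20 UMIs (circles, 1 row per list). The black bar is the list's median and the grey line the median of all 7491 genes tested. The interferon-gamma response and interferon lists have their medians at 0.77 and 0.43, and the identity and receptor signalling lists theirs near 0.

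Naive genes lay on both sides of 0. The 10 members had a median log2 ratio of -0.10. Fcer2a, the low-affinity IgE receptor of follicular B cells, was higher in tamoxifen at 68.8 CPM against 43.3 CPM in oil (0.67, 0.18 to 1.17). Fcer2a was at 1.19 at a mitochondrial limit of 5% and at 0.11 with each cell weighted equally. The IgD gene Ighd was at 0.28 (0.01 to 0.56), but at -0.44 in male cells. Ccr7, which guides lymphocytes to lymph nodes, was lower at 304 CPM in tamoxifen against 402 CPM in oil (-0.40, -0.59 to -0.22). Ccr7 was at -0.17 without the barcodes that held RNA of other types, at -0.19 with each cell weighted equally and at 0.07 in male cells. Klf2 was at -0.19 (-0.34 to -0.05). In the naive state, with UMIs of at least 3 of the 10 genes, were 55.7% of thinned tamoxifen cells (49.2 to 62.0) and 64.4% of oil cells (56.2 to 72.1), a log2 ratio of -0.21 (-0.45 to 0.03). Of T cells, 13.4% and 13.5% met this cut. Near it, 64 tamoxifen and 31 oil cells had 2 genes and 60 and 43 had 3. The direction was not stable, since thinning to 1000 UMIs gave 41.6% and 39.5% and thinning to 2500 UMIs gave 78.3% and 70.0%. Inside the naive state Satb1, Vpreb3 and the complement receptor gene Cr2 were higher in both libraries, for Cr2 at 91.7 CPM inside and 44.0 CPM outside in tamoxifen and 88.5 and 38.9 CPM in oil.

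Activation genes also lay on both sides of 0. Of 29 members compared 0 were at least 2-fold higher, against 2.76% of all genes, and 2 at least 2-fold lower, against 3.04%, with a median log2 ratio of -0.08. Higher in tamoxifen were the adhesion molecule Icam1, at 74.0 CPM against 37.3 CPM (0.99, 0.48 to 1.52, but -0.09 in male cells), the early growth response gene Egr3 (0.53, 0.06 to 1.02), Traf1 (0.37, 0.10 to 0.65) and Nfkbia (0.29, 0.11 to 0.48). Lower were Rel (-0.40, -0.52 to -0.27), Nr4a3 (-0.48, -0.83 to -0.12) and the survival gene Bcl2a1b (-0.79, -1.04 to -0.55). The 2 past 2-fold were Ebi3, from 13 and 18 UMIs, and the chemokine gene Ccl22 (-4.30), of whose 251 oil UMIs 217 came from 1 barcode. The costimulatory genes Cd83, Cd86 and Cd40 were at -0.10, -0.06 and -0.36, and Cd69 was at 0.24 (0.03 to 0.45). At least 3 of these genes were found in 77.2% of thinned tamoxifen cells (71.5 to 82.3) and 79.9% of oil cells (72.5 to 86.0), a log2 ratio of -0.05 (-0.20 to 0.10), and 89.1% and 88.0% of T cells met the same cut, so it is not specific to B cells. Near it, 40 tamoxifen and 24 oil cells had 2 genes and 46 and 25 had 3. The states overlapped. Both naive and activated were 105 tamoxifen cells (42.7%) and 75 oil cells (50.3%), and in none of the 3 states were 18 and 7.

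Immediate early and heat shock genes, which tissue digestion is also known to induce, differed in both directions. Their median over 19 genes was -0.02. Jun had 189 CPM in tamoxifen and 95.3 CPM in oil (0.99, 0.67 to 1.31) and Fos 387 and 234 CPM (0.73, 0.52 to 0.94), whereas Junb was at -0.29, Dusp1 at -0.44 and Btg2 at -0.32. Jun and Fos were at -0.45 and -0.30 in T cells of the same libraries. In female B cells they were at 1.26 and 0.77, and in male B cells at -0.44 and -0.33. Hspa1a, the inducible heat shock protein 70, was at 1.04 over all B cells but at 0.00 in female and -0.28 in male cells alone.

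Genes of B1 cells mostly lay below 0, and those of memory B cells less clearly so. Of 11 B1 genes compared, 2 lay above 0, against 48.2% of all genes, and the median log2 ratio was -0.31, with a summed level of 1339 CPM against 1649 CPM (-0.30, -0.39 to -0.21). Spn, which encodes CD43, was at -1.09 from 21 and 30 UMIs (-1.96 to -0.23), the interleukin-5 receptor gene Il5ra at -0.85 (-1.69 to -0.01), Plac8 at -0.25 (-0.38 to -0.13), and the B1 transcription factors Zbtb32 and Bhlhe41 at -0.43 (-1.09 to 0.22) and -0.31 (-0.72 to 0.09). In T cells the summed B1 list was at 0.11. Of 14 genes of memory and atypical B cells 0 were at least 2-fold apart, against 5.81% of all genes. Their median was -0.36, and -0.13 without the highest barcode of each library. Their summed log2 ratio was -0.11 in female cells (-0.19 to -0.04) and -0.88 in male cells (-1.01 to -0.76). The calcium-binding S100a6 had 809 CPM in tamoxifen and 1299 CPM in oil (-0.68, -0.79 to -0.58) and Lgals1 193 and 318 CPM (-0.72, -0.94 to -0.50), whereas Vim was at 0.25 (0.14 to 0.36).

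The immunoglobulin class was read per cell. UMIs of Ighm and Ighd were summed, and a cell was given IgM or IgD where this sum was not below any single switched heavy chain gene. Otherwise it was given the switched gene with most UMIs, and cells with under 3 UMIs by this rule were not assigned. Summing the 2 genes favours IgM or IgD over the switched classes. IgM or IgD was assigned to 66.1% of tamoxifen B cells (59.9 to 72.0) and 56.6% of oil B cells (48.3 to 64.6), and IgA to 12.4% (8.55 to 17.1) and 17.1% (11.5 to 24.1). Ighg2b, the most frequent IgG gene, was assigned to 16 and 9 cells, and 29 and 22 cells had too few UMIs. The kappa light chain was assigned to 86.5% and 87.5% and lambda to 7 tamoxifen cells and 1 oil cell. The lambda constant gene Iglc1 was at 0.83 (0.58 to 1.08), 0.54 without the highest barcode of each library and 0.21 at a mitochondrial limit of 25%. In thinned T cells Iglc1 was found in 52 of 3846 tamoxifen and 2 of 2166 oil cells, so its background differed in the same direction, and its part in the B cell value was not tested. Cells with thinned UMIs of Ighd or Fcer2a but not of Zbtb32 or Bhlhe41 made up 26.4% of tamoxifen and 24.8% of oil B cells. Their Apoe level, 528 and 589 CPM, was below that of cells with none of the 4 genes, at 1708 and 1918 CPM. Cells with Zbtb32 or Bhlhe41 but neither Ighd nor Fcer2a, 19 tamoxifen and 15 oil, held 2033 and 711 CPM of Apoe. In oil this lay near the level of the Ighd or Fcer2a cells.

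Other programmes rested on few UMIs or few cells. S1pr2, a receptor that keeps B cells in germinal centres, had no UMI in either library. The 13 cycling genes compared had a median of -0.61, which became 0.01 without the highest barcode of each library. Of the 51 oil UMIs of Pclaf, a replication gene, 50 came from 1 cell. The 13 genes of sterol synthesis and uptake had a median of -0.32, and -0.36 without the highest barcodes, with 3 at least 2-fold lower, against 3.04% of all genes. Among them was Idi1 (-1.16), which was at -0.50 without the highest barcodes and at -0.33 without the barcodes that held RNA of other types. The plasma cell programme had a median of -0.28 over 11 genes, with Prdm1 at -0.53 (-1.29 to 0.23). The glycolysis genes were near 0, with a median of 0.09 and Gapdh at 0.31. B cells held few Hedgehog pathway transcripts. Ptch1, the Hedgehog receptor, had 19 UMIs in tamoxifen and 9 in oil, Gli1 and Hhip 0 in both, and over all other kept barcodes Hhip had 29 and 40 UMIs. These immune cells therefore do not check the deletion.

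The remaining genes named by rank were of mixed function. Higher in tamoxifen were Slc2a3, a glucose transporter (18.1 and 4.33 CPM, log2 ratio 2.06), the ubiquitin ligase Ube2o (1.80), Ranbp10 (1.58), the aminopeptidase Dnpep (1.46), Mycbp (1.43), Rnaset2b (1.28), the initiation factor subunit Eif3j1 (1.23), the kinase Lrrk2 (1.18) and Med11 (1.10). Eif3j1 and Rnaset2b were also higher in T cells (0.95 and 1.40). Rnaset2b has a near-identical neighbour, Rnaset2a, so its count may depend on how reads that match both were handled, which was not tested. Lower in tamoxifen were Camk2n1, an inhibitor of CaM kinase II (10.5 and 52.8 CPM, -2.33, -3.18 to -1.56, in 14 and 20 cells), Samd11 (-1.87), Plpp3 (-1.99), Cdkal1 (-1.67), Pdlim5 (-1.61), Ogfrl1 (-1.70) and Id2 (126 and 267 CPM, -1.08, -1.33 to -0.82). Id2 was at -0.78, no longer 2-fold, without the barcodes that held RNA of other types. Setd5, a chromatin gene, was at -1.02 in B cells and at -1.37 in T cells. Samd11 was also lower outside B cells, at -1.23 in T cells and -1.29 over all other kept barcodes. The lower calls of Tmem80, Fscn1, Ogfrl1 and Basp1 leaned on single oil barcodes, which held 35 of 80, 49 of 97, 19 of 48 and 54 of 250 UMIs. Ogfrl1 was at -1.26 without the highest barcodes. Fscn1, a marker of migratory dendritic cells, was at 0.19, Tmem80 at 0.32 and Basp1 at -0.80 without the barcodes that held RNA of other types. Hspb1 (-1.27) was found in 14 cells of each library and was at 1.75 in female and -1.83 in male cells.

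**Figure D5:**
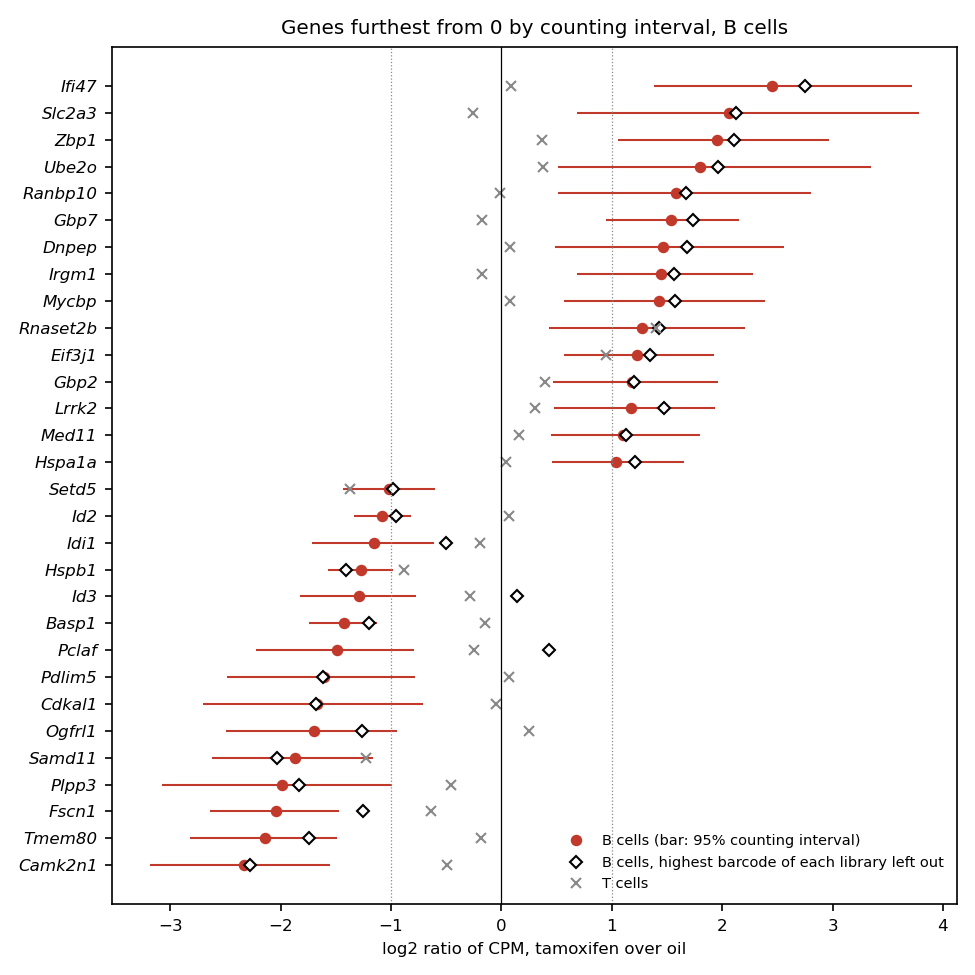
Log2 ratio of CPM, tamoxifen over oil, for the 30 genes named by rank. Circles with bars are all B cells with the 95% counting interval, open diamonds are the same without the highest barcode of each library, and crosses are T cells. The diamonds of the higher genes stay beside their circles, from 1.13 to 2.75, whereas those of Id3 and Pclaf cross 0.

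Signals that attract or sustain B cells were read in the other kept barcodes of each library. Their CPM depend on the mix of cells, which differed. Of all kept barcodes, 7121 of 10138 in tamoxifen and 6139 of 6794 in oil held no UMI of Krt79 or Plet1. The part of this mix in the values below was not tested. Cxcl13, the ligand of the B cell receptor Cxcr5, had 43.0 CPM in tamoxifen and 78.4 CPM in oil, a log2 ratio of -0.87 (-0.93 to -0.80), in 152 and 129 cells. Cxcr5 itself was at 0.09 (-0.20 to 0.37) in B cells. Tnfsf13b, which encodes BAFF, was at -0.15 (-0.27 to -0.04), Cd40lg at -0.09 (-0.15 to -0.04), and Il21, a helper T cell cytokine, at 2.52 (1.57 to 3.63) from 86 and 10 UMIs. Il10 was at -0.95 (-1.21 to -0.70) and Il4 at -1.63, from 16 and 33 UMIs.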

How the data were processed

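UMI counts per gene and barcode were deposited by the authors as raw matrices of whole numbers for 31053 genes, made with Cell Ranger 5.0.1 on GRCm38 (mm10), as the submitters' processing notes state. For the gene annotation, a version not given in the sources used here was applied. Barcodes were kept with at least 300 genes and under 10% mitochondrial UMIs, and B cells were taken by the rule of the report. Doublets were not removed. The rule drops barcodes with other types' genes, and removing the highest Scrublet scores (scanpy 1.11.5) was an alternative. The members and gene lists were chosen with earlier results of these data known.

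UMIs of the B cells were summed per library and divided by their total (CPM), with exact Poisson-ratio intervals at 95%. Shares carry Clopper-Pearson intervals. Both cover counting error only, and with 1 library per group no test was made. The tamoxifen library held 83730550 UMIs and the oil library 57704412. Genes needed 20 UMIs over both libraries, and 2-fold was the call. Named genes had at least 30 UMIs in the higher library and were ranked by the interval bound nearest to 0, 15 each way. Receptor segments, ribosomal, mitochondrial, haemoglobin and unnamed genes were left out. So were 15 higher and 24 lower genes whose CPM in B cells was under 1/5 of that in all other barcodes. Being under this limit in 1 library sufficed, and it was set for free RNA. List members are named as well. The 10-gene limit of the interferon lists and the values without barcodes holding other types' RNA were chosen after the values were seen. The ratio step was tested on simulated data. Female cells held Xist UMIs and none of Ddx3y, Eif2s3y, Kdm5d and Uty, and male cells the reverse. Gene positions are from GENCODE M21 on GRCm38. Some list members are not reported here. Alternatives were other cell filters, scalings, UMI minimums, thinning depths and state limits. Python 3.11.15, numpy 2.4.6, scipy 1.17.1 and pandas 2.3.3 were used.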

Additional observations from a re-analysis of the deposited data

Results flagged for a closer look

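B cells were also found outside the barcodes used above. Among barcodes with fewer than 300 genes or at least 10% mitochondrial UMIs, 57 of 2842 in the tamoxifen library (2.01%, 1.52 to 2.59) and 44 of 3548 in the oil library (1.24%, 0.902 to 1.66) met the same gene criteria, a log2 ratio of 0.69 (0.13 to 1.26). It was singled out because the signal lies in data that the comparisons did not use and is larger in the tamoxifen library than in the oil control. The mitochondrial limit was exceeded by 2691 tamoxifen and 3302 oil barcodes, and the depth of these barcodes was not matched between the libraries.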

How the results depend on the processing

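No paired analysis was possible because each group has 1 library and the labels give no replicate numbers. The number of higher and lower genes followed the minimum of UMIs, with 789 and 1051 genes when any gene seen in both libraries counted and 42 and 59 at 50 UMIs, and 135 lower genes among male cells. The log2 ratio of the B cell share was 0.80 in male cells and 0.51 without alveolar macrophage barcodes. The interferon median was 0.22 with each cell weighted equally and -0.52 in male cells. The interferon-gamma response median was 0.47 in female and 0.40 in male cells and stayed above 0 under all 14 alternatives. The activated median was 0.14 in male cells. The log2 ratio of the interferon state share was 0.78 at a mitochondrial limit of 25%, 1.45 in male cells, 0.81 at 1000 UMIs and 0.82 with at least 4 genes. That of the activated state was -0.23 with at least 1000 genes per cell. That of the naive state changed sign, at 0.0457 with a mitochondrial limit of 5%, 0.14 with at least 1000 genes, 0.0568 in female cells, 0.0757 at 1000 UMIs, 0.16 at 2500 UMIs and 0.0275 without thinning. The cause was not tested. Of 519 values of 44 single genes under alternatives, 467 stayed within the interval of the reported value and 52 did not, of which 18 changed sign. In male cells these 18 included Basp1 (2.32), Fscn1 (2.56), Gbp5 (-0.18), Hspa1a (-0.28), Rnaset2b (-0.76), Ccr7 (0.0651), Icam1 (-0.0869) and Ighd (-0.44), and in female cells Hspa1a (-0.0013), Hspb1 (1.75), Id3 (0.25) and H2-Eb1 (-0.12). Without barcodes holding other types' RNA they were Fscn1 (0.19), Id3 (0.37) and Tmem80 (0.32). Id3 was at 0.34 without the highest Scrublet scores and at 0.14 without its highest barcodes, where Pclaf was at 0.43. Ifi47, Zbp1, Gbp7, Irgm1, Gbp2, Gbp9, Irf1 and Tap1 were above 0 under every alternative that gave a value, with Ifi47 between 0.56 and 3.36. Male cells number 33 and 16, so their values carry the widest error, and genes under 20 UMIs were not compared at this depth.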
